A study of Caenorhabditis elegans with 8 samples.

Results

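Arsenite-treated worms were compared with water-treated worms labelled 1 day, in 4 of the study's 8 libraries: water libraries 31 and 33, and arsenite libraries 32 and 34. The source labels do not say from what point the days are counted. Yolk protein genes, which adult hermaphrodites express, took 7.53% to 7.88% of counts in these libraries. The members were chosen by their source labels, with earlier results of these data known. All 4 were prepared, using an Illumina mRNA kit, from whole hermaphrodites of N2, the wild-type laboratory strain of Caenorhabditis elegans. The labels write 100 nM beside arsenite and beside water alike, and the descriptions add 24 h without saying what that time measures; the length of exposure is not given. Whether a group's 2 libraries stem from separate cultures is not stated. The p-values and intervals therefore reflect only how far these samples differ, and that spread may be technical. The libraries held 24340917 (31), 27317490 (33), 26917287 (32) and 27041107 (34) counts, and reads were found for 18766 to 18940 genes in each. The other 4 libraries are of worms labelled 5 days and enter only where named.

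Arsenite is a trivalent form of arsenic that binds the thiol groups of proteins and of lipoic acid and draws on the cell's glutathione. In C. elegans the transcription factor SKN-1, held in check by WDR-23 and activated through the PMK-1 kinase pathway, switches on glutathione S-transferases and the enzymes of glutathione synthesis. Misfolded proteins call up heat shock proteins through HSF-1, the endoplasmic reticulum and the mitochondria have unfolded protein responses of their own, and metals such as cadmium induce metallothioneins. Arsenic itself is handled by ABC transporters of the MRP and P-glycoprotein families and by the ATPase ASNA-1.

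No gene passed the test between arsenite and water at 1 day. With edgeR's quasi-likelihood test and an adjusted p under 0.05, 0 of 13723 genes tested (0%) were called. The smallest adjusted p was 0.100. At an unadjusted p under 0.05 there were 142 genes higher in arsenite (1.03%) and 185 lower (1.35%), 327 in all. DESeq2 and limma voom each called 0 as well, and had 24 and 340 genes at an unadjusted p under 0.05. The count turned on the water libraries: with water library 31 left out 58 genes were called, with water library 33 left out 5 were called, and leaving out arsenite library 32 or 34 gave 0. Leaving out a water library leaves 1 in that group, and the spread in the fit then comes from the arsenite pair alone. Such calls take no account of the difference between water libraries 31 and 33. In 1882 genes both arsenite libraries lay above both water libraries (13.7%), and in 2025 both lay below (14.8%).

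Given the spread of these 4 libraries, the fit gave narrow intervals for most well-expressed genes. Levels are in CPM, the counts scaled to the TMM-normalized size of each library. The 95% interval of the fold change lay within 1.5-fold in either direction for 9748 of the 13723 genes (71%) and within 2-fold for 12131 (88.4%). Of the 1282 genes between 5 and 10 CPM 95.9% had an interval within 1.5-fold, and of the 3387 between 10 and 50 CPM 99.7% did. Under 1 CPM none of 2044 genes reached that precision, and 30.9% had an interval within 2-fold. A fitted change of more than 1.5-fold was found in 413 genes, of which 364 lay under 1 CPM and 49 between 1 and 5 CPM. Over all genes tested the median log2 fold change was -0.0029, and the 5th to the 95th percentile ran from -0.33 to 0.29.

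**Figure D1:**
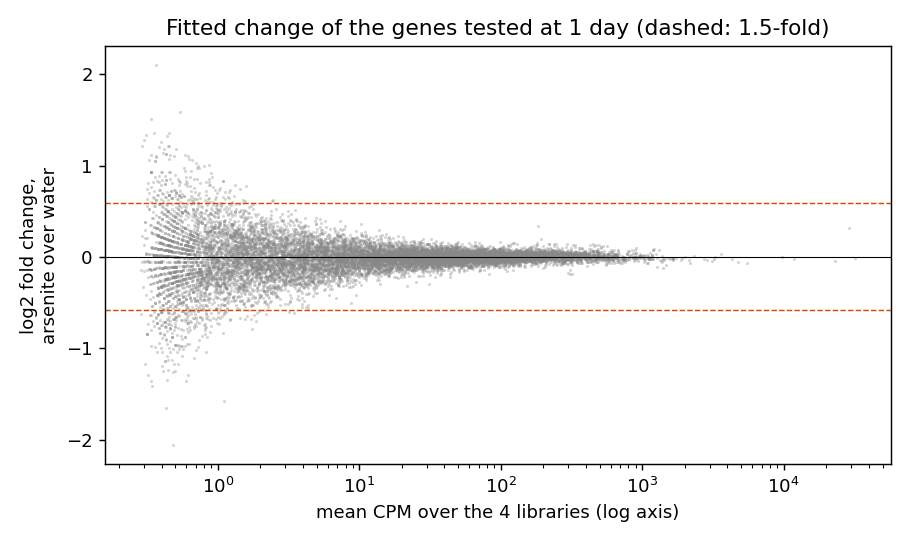
Each point is 1 of the 13723 genes tested, with its mean CPM over the 4 libraries on a log axis and its fitted log2 fold change of arsenite over water; dashed lines mark 1.5-fold. The cloud narrows with level, and no gene of 5 CPM or more lies beyond the dashed lines.

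The genes that handle arsenic differed little between the groups. asna-1 was at 114.3 and 118.3 CPM in water libraries 31 and 33 and at 118.4 and 121.3 CPM in arsenite libraries 32 and 34. Both arsenite libraries lay above both water libraries, by 0.044 on the log2 scale, with an interval of -0.062 to 0.15. The exporter gene mrp-1 was at 93.6 and 92.4 CPM in water and at 90.6 and 92.1 CPM in arsenite, and pgp-3 was at 45.2 and 46.0 CPM in water and at 49.04 and 44.87 CPM in arsenite. pcs-1, which encodes the phytochelatin synthase that makes metal-binding peptides from glutathione, was at 18.6 and 18.3 CPM in water and at 20.1 and 19.3 CPM in arsenite, without overlap and with a log2 fold change of 0.094 (interval -0.089 to 0.28). hmt-1, the ABC transporter known for heavy metal tolerance, was at 84.5 and 83.3 CPM in water and at 82.1 and 82.7 CPM in arsenite.

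Of the 22 genes of arsenic handling and export, 21 were tested, 0 were called and 19 had an interval within 1.5-fold. Their median log2 fold change was -0.026, against -0.0029 over all genes tested. Non-overlapping groups were found in 2 members on the higher side (9.52%) and 5 on the lower side (23.8%), against 13.7% and 14.8% of all genes tested. The member of smallest p was aqp-10, a gene of the aquaporin family, at 34.1 and 41.5 CPM in water and 33.6 and 33.3 CPM in arsenite. Arsenite was lower in both libraries, the larger part of the gap being to water library 33, and the log2 fold change was -0.18 (SE 0.081, unadjusted p = 0.0367, adjusted p = 1.00). Except for a pseudogene and rol-8, both described below, every tested gene given a value here had an adjusted p of 1.00.

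The gene skn-1 and its regulators were measured tightly and without a call. skn-1 itself was at 219.9 and 219.5 CPM in water and at 218.9 and 219.2 CPM in arsenite. The 4 libraries lay within about 1 CPM of each other, and the log2 fold change was -0.0041 (interval -0.11 to 0.10). pmk-1, the p38 kinase that activates SKN-1, was at 28.8 and 27.7 CPM in water and at 24.8 and 27.4 CPM in arsenite. The arsenite libraries lay lower without overlap, and the log2 fold change was -0.11 (interval -0.28 to 0.052). nsy-1, the kinase at the head of that cascade, was at 117.8 and 105.8 CPM in water and at 118.6 and 123.8 CPM in arsenite, and its log2 fold change of 0.12 had an unadjusted p of 0.0479 in edgeR. wdr-23 was at 163.4 and 151.9 CPM in water and at 160.1 and 162.8 CPM in arsenite, with overlap. All 20 SKN-1 regulators were tested, and all 20 had an interval within 1.5-fold.

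The best-known SKN-1 targets were not called either. gst-4, the glutathione S-transferase gene used as the standard SKN-1 reporter, was at 21.96 and 23.54 CPM in water and at 25.4 and 22.8 CPM in arsenite. The groups overlapped, and the log2 fold change was 0.079, with an interval of -0.098 to 0.26. gcs-1, the gene of the enzyme that sets the rate of glutathione synthesis, was at 137.4 and 146.3 CPM in water and at 136.2 and 138.0 CPM in arsenite. These overlapped too, and the log2 fold change was -0.050 (interval -0.16 to 0.058). Of 19 SKN-1 targets outside the glutathione S-transferase family, gcs-1 among them, 0 were called and 15 had an interval within 1.5-fold. Their median was 0.0070.

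Among 49 glutathione S-transferase genes 38 were tested, 0 were called and only 20 had an interval within 1.5-fold. Their median log2 fold change was 0.045, 7 were higher without overlap (18.4%) and 8 lower (21.1%), against 13.7% and 14.8% of all genes tested. The 3 with an unadjusted p under 0.05 were all higher and of low level. gst-11 was at 0.453 and 0.472 CPM in water and at 0.718 and 1.17 CPM in arsenite. gst-9 was at 0.948 and 0.763 CPM in water and at 1.55 and 1.25 CPM in arsenite, and gst-12 at 1.03 and 0.981 CPM in water and at 1.398 and 1.795 CPM in arsenite. In each of the 3 both arsenite libraries lay above both water libraries, with log2 fold changes of 1.02 (SE 0.39), 0.71 (SE 0.30) and 0.67 (SE 0.28). The higher-level family members lay closer together: gst-1 was at 97.8 and 98.5 CPM in water and 98.9 and 92.7 CPM in arsenite, and gst-7 at 99.7 and 100.3 CPM in water and 98.4 and 91.6 CPM in arsenite.

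The thioredoxin and glutathione reducing systems and the lipoic acid enzymes, whose thiols arsenite can bind, were likewise without a call. gsr-1, glutathione reductase, was at 223.4 and 228.6 CPM in water and at 232.6 and 228.9 CPM in arsenite. trxr-1, the selenium-containing thioredoxin reductase, was at 170.7 and 174.7 CPM in water and at 169.7 and 176.4 CPM in arsenite, and its interval ran from -0.10 to 0.11. Of 28 genes of these systems tested, 24 had an interval within 1.5-fold, and their median was -0.0081. Without overlap 3 lay higher (10.7%) and 8 lower (28.6%), against 13.7% and 14.8% of all genes tested. The member of smallest p, gpx-1, was at 11.7 and 10.06 CPM in water and at 9.37 and 8.57 CPM in arsenite. Its log2 fold change was -0.28 (SE 0.12). dlat-1, the lipoate-carrying subunit of pyruvate dehydrogenase, was at 273.2 and 309.1 CPM in water and at 290.4 and 274.0 CPM in arsenite, inside the range of the water libraries. dld-1, the dihydrolipoamide dehydrogenase shared by these complexes, was at 262.2 and 257.9 CPM in water and at 261.8 and 243.8 CPM in arsenite. All 18 genes of the lipoic acid complexes had an interval within 1.5-fold.

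Heat shock genes were near their water levels or near zero. hsp-90 was at 3124 and 3386 CPM in water and at 3344 and 3165 CPM in arsenite. hsp-1, the constitutive heat shock protein of the HSP70 class, was at 3068 and 3239 CPM in water and at 3180 and 2929 CPM in arsenite. Their groups overlapped, and all 28 cytosolic chaperones tested had an interval within 1.5-fold, with a median of -0.0010. The inducible genes were barely detected. hsp-70 had 15 counts in water library 31, 5 in water library 33, 2 in arsenite library 32 and 8 in arsenite library 34. hsp-16.2 had 3 in each water library, 7 in arsenite library 32 and 2 in arsenite library 34, hsp-16.41 had 1 and 1 in water and 6 and 3 in arsenite, and the identifier of hsp-16.48 that had reads gave 7 in each of the 4. These were left out of the test for low counts. At this depth 3 counts correspond to 0.110 to 0.123 CPM, and a small change at that level was not detectable. None of the inducible genes named here had more than 8 counts in an arsenite library. The near-identical copies of the hsp-16 genes make their counts uncertain. Only 8 of 19 small heat shock genes were tested, with hsp-12.3 at 1.195 and 1.344 CPM in water and 1.47 and 2.16 CPM in arsenite as the member of largest log2 fold change, 0.51 (SE 0.27).

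The unfolded protein responses were measured on abundant genes. hsp-4, the BiP gene that reports stress of the endoplasmic reticulum, was at 434.2 and 458.9 CPM in water and at 468.4 and 434.8 CPM in arsenite, with an interval of -0.11 to 0.14. hsp-6 and hsp-60, the chaperones that report mitochondrial stress, were at 452.3 and 451.2 CPM and at 439.2 and 440.4 CPM in water; in arsenite hsp-6 was at 465.2 and 427.4 CPM and hsp-60 at 463.5 and 402.5 CPM. For both genes the arsenite libraries lay on either side of the water libraries. atfs-1, the transcription factor of the mitochondrial response, was at 102.0 and 101.6 CPM in water and at 97.9 and 100.5 CPM in arsenite. All 26 mitochondrial stress genes and 27 of the 29 of the endoplasmic reticulum had an interval within 1.5-fold.

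**Figure D2:**
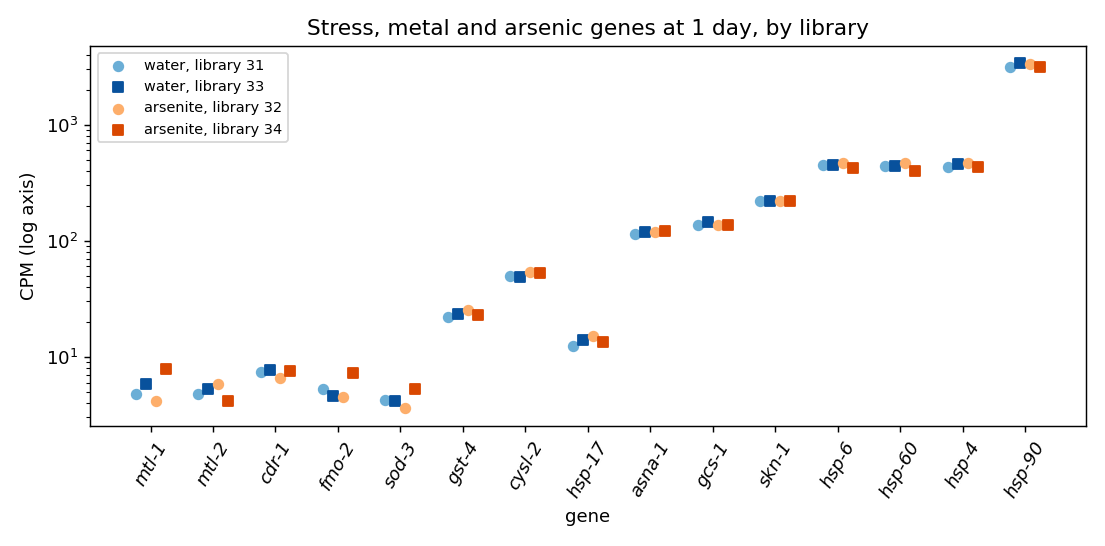
CPM on a log axis of 15 genes of arsenic handling and of the oxidative, metal, heat shock and unfolded protein responses in the 4 libraries (circles and squares are the 2 libraries of a group). For skn-1 the points lie level, from 218.9 to 219.9 CPM, and for hsp-6 and hsp-60 the arsenite points straddle the water points.

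No metal-responsive or metal transport gene was called, and the genes known for induction by metals were of low level. The metallothionein gene mtl-1 was at 4.78 and 5.85 CPM in water and at 4.19 and 7.80 CPM in arsenite, and mtl-2 at 4.74 and 5.30 CPM in water and 5.78 and 4.18 CPM in arsenite. In both genes the arsenite libraries held the lowest and the highest value. cdr-1, known for its induction by cadmium, was at 7.42 and 7.67 CPM in water and at 6.61 and 7.51 CPM in arsenite, with overlap. numr-1, a nuclear gene induced by metals, had 1 count in arsenite library 34 and 0 in the other 3 libraries, and its second identifier had 0 in all 4. ftn-1, an iron-storage ferritin gene, was at 0.824 and 0.436 CPM in water and at 0.869 and 0.550 CPM in arsenite. The member of smallest p was the ferritin gene ftn-2, at 88.1 and 96.7 CPM in water and 85 and 86.2 CPM in arsenite. It lay lower in arsenite without overlap, with a log2 fold change of -0.11 (SE 0.056). The copper transporter gene cua-1 was at 188.3 and 181.4 CPM in water and at 180.4 CPM in both arsenite libraries. Of 18 metal-responsive and metal transport genes tested 12 had an interval within 1.5-fold, and their median was -0.041, with 4 positive and 14 negative values. Without overlap 0 lay higher (0%) and 4 lower (22.2%), against 13.7% and 14.8% of all genes tested.

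Other stress reporters were also inside or close to the water values. cysl-2, a target of the hypoxia factor HIF-1, was at 49.49 and 48.97 CPM in water and at 54.2 and 53.0 CPM in arsenite. It was without overlap, and its log2 fold change was 0.12 (SE 0.060, edgeR unadjusted p = 0.0542). nhr-57, a second HIF-1 target, was at 6.55 and 6.36 CPM in water and at 7.10 and 7.58 CPM in arsenite, also without overlap, with a log2 fold change of 0.19 (SE 0.13). cysl-2 and nhr-57 were the 2 of the 16 reporter genes tested in which the groups did not overlap (12.5%, against 13.7% of all genes on the higher side). sod-3, the mitochondrial superoxide dismutase gene that reports DAF-16, was at 4.203 and 4.141 CPM in water and at 3.59 and 5.31 CPM in arsenite. fmo-2, a flavin monooxygenase gene, was at 5.28 and 4.61 CPM in water and at 4.53 and 7.25 CPM in arsenite, with library 34 alone on the high side. The median of the 16 reporters was 0.048, with 10 positive and 6 negative values and none at an unadjusted p under 0.05.

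The gene of smallest p was a pseudogene beside the ribosomal DNA. WBGene00004677 lies on chromosome I at 15060299 to 15061150 (WBcel235, plus strand), next to the annotated ribosomal RNA gene rrn-1.1, which starts at 15062083. It was at 172.8 and 151.6 CPM in water and at 207.02 and 203.01 CPM in arsenite. The groups did not overlap, the gap between them was larger than the spread within either, and arsenite was higher by 0.34 on the log2 scale (SE 0.058; adjusted p of 0.100 in edgeR). It passed with water library 31 left out (log2 fold change 0.44), with offsets by transcript length (0.35), without a filter on low counts (0.34) and with neighbouring library numbers as a replicate block (0.34), and did not pass in the other 9 alternatives. rrn-3.1, the large ribosomal RNA of the cytosol in the same region, was at 30240 and 21590 CPM in water and at 34930 and 29740 CPM in arsenite, with overlap, and was called higher by 0.59 without water library 31. Per 1000 counts of rrn-3.1 the pseudogene had 5.72 (31) and 7.02 (33) counts in water against 5.93 (32) and 6.83 (34) for arsenite, so that on this scale the arsenite libraries lay inside the water libraries. Nuclear ribosomal RNA took 3.02% and 2.18% of counts in water and 3.44% and 3.01% in arsenite, from libraries made with a kit for messenger RNA.

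Next came rol-8, a cuticle collagen gene, at 1.195 and 2.107 CPM in water and at 0.642 and 0.476 CPM in arsenite. The arsenite libraries lay lower without overlap, by -1.57 on the log2 scale (SE 0.34; adjusted p of 0.944 in edgeR). It passed without a filter on low counts and with water library 31 left out. Among genes of at least 5 CPM in one group the smallest p on the lower side was that of cox-6C, a subunit of cytochrome c oxidase, at 24.2 and 24.2 CPM in water and 21.4 and 17.6 CPM in arsenite. sdhd-1, a subunit of succinate dehydrogenase, was at 49.4 and 44.6 CPM in water and at 42.3 and 38.5 CPM in arsenite. Both lay lower in arsenite without overlap, by -0.32 (SE 0.093) and -0.22 (SE 0.070) on the log2 scale. sec-61.B, of the protein-conducting channel of the endoplasmic reticulum, was at 30.6 and 38.3 CPM in water and at 26.9 and 29.1 CPM in arsenite (-0.30, SE 0.090). The remaining 5 of the 8 lowest p on this side, athp-3, W03C9.5, pigx-1, F27D4.7 and gldi-9, had log2 fold changes of -0.56 to -0.30. On the higher side F31F6.1, Y43C5A.3, C49H3.6, R10H1.1, frm-7, K08D8.4 and the splicing factor gene rsp-8 followed the pseudogene, at 0.14 to 0.42. Without water library 31 sec-61.B was called lower (-0.45) and rsp-8 higher (0.24).

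The largest of the 6 differences between 2 libraries at 1 day was that between the water libraries. Over 7361 genes of at least 10 CPM the log2 ratio of water library 33 to water library 31 had an SD of 0.120, and that of arsenite library 34 to 32 an SD of 0.103. The 4 ratios of an arsenite to a water library had SDs of 0.094 to 0.112. Water libraries 31 and 33 differed by more than 2-fold in 4 genes, all 4 mitochondrial (ND2, ND6, ND3 and the ribosomal RNA WBGene00014454), and no other pair had such a gene. Log2 CPM of any 2 libraries correlated across genes at 0.99519 to 0.99559. The pairs of 1 treatment had the lowest values, 0.99519 for water libraries 31 and 33 and 0.99521 for arsenite libraries 32 and 34. The 3 principal components were nearly equal, with 34.8%, 33.9% and 31.3% of the variance. The first put libraries 31 and 34 on one side and 33 and 32 on the other, and the second put 31 and 32 against 33 and 34. In both, each side held a water and an arsenite library. The third put water libraries 31 and 33 (3.73 and 15.66) on one side and arsenite libraries 32 and 34 (-15.51 and -3.88) on the other.

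The genes encoded by mitochondrial DNA differed most between the water libraries. ND2, a subunit of respiratory complex I, was at 173.7 CPM in water library 31, 62.0 CPM in water library 33, and 102.6 and 107.4 CPM in arsenite libraries 32 and 34. ND6, of the same complex, was at 123.8 and 53.8 CPM in water and at 72.4 and 82.3 CPM in arsenite. For both genes the arsenite values lay between the water values, which were 2.80-fold and 2.3-fold apart, and the fitted log2 fold changes were -0.16 (SE 0.69) and -0.19 (SE 0.57). The direction follows from which water library is used. Without library 31 the edgeR fit put ND2 higher in arsenite by 0.76 and ND6 by 0.53. Without library 33 it put ND2 at -0.73 and ND6 at -0.68. Each of these fits holds 1 water library, so the gap between the water libraries is not part of its spread.

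The other mitochondrial genes varied less between the water libraries, and each was higher in library 31 than in 33. ND3 was 2.04-fold higher in library 31 than in 33, ATP6 1.504-fold, ND4 1.41-fold, ND5 1.402-fold and CYTB 1.27-fold. COX1, the most abundant, was at 6104 and 5245 CPM in water and at 5353 and 5474 CPM in arsenite. COX2, COX3, COX1 and ND1 were 1.15-fold to 1.18-fold higher in library 31. All 11 subunits tested were thus lower in water library 33 than in 31, with a median log2 ratio of -0.49, whereas the ratio of arsenite library 34 to 32 had a median of 0.023. Without library 31 the fit also put ATP6 higher in arsenite (0.35), and without library 33 it put ND4 and ND5 lower (-0.41 and -0.40). ND4L had 1 to 3 counts a library and was not tested. The 2 mitochondrial ribosomal RNA identifiers split the arsenite libraries as well: WBGene00014454 was at 48.5 and 23.3 CPM in water and 45.8 and 31.9 CPM in arsenite, and WBGene00014472 at 22.9 and 14.9 CPM in water and 25.1 and 18.7 CPM in arsenite. The pseudogene, rRNA and mitochondrial values come from counts whose strand setting is not given. The part of these library differences in the results above was not tested.

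**Figure D3:**
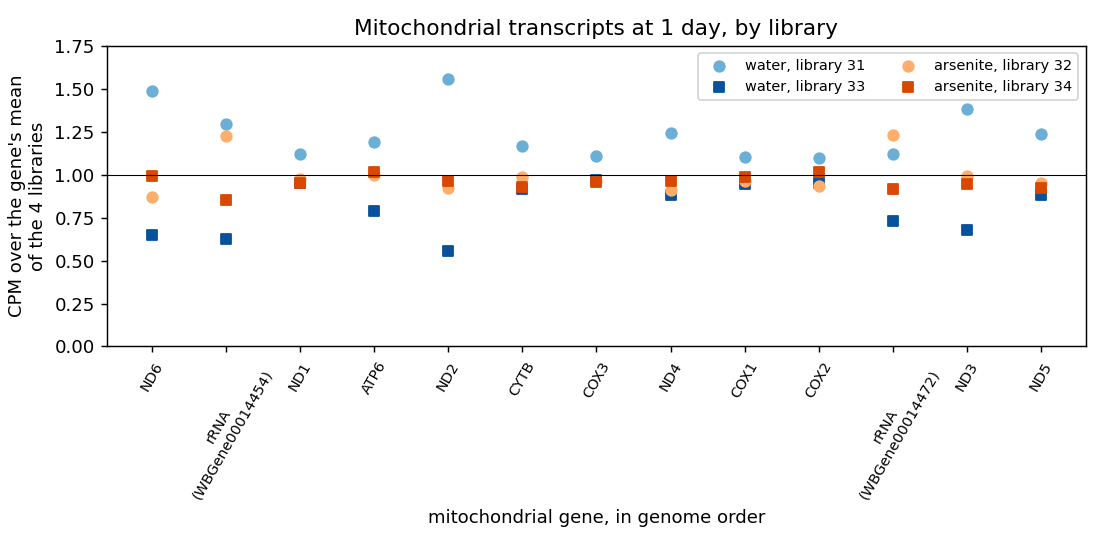
CPM of each mitochondrial gene tested, divided by its mean over the 4 libraries, in genome order (circles and squares are the 2 libraries of a group). Water library 31 is highest for all 11 protein-coding genes, water library 33 is the lowest for ND2 and ND6, and the arsenite libraries lie between them there.

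Ribosomal protein genes differed between the 2 libraries of each treatment. They took 4.22% and 4.78% of counts in water libraries 31 and 33 and 4.48% and 4.25% in arsenite libraries 32 and 34. Of 81 tested, 80 were higher in water library 33 than in 31 (median log2 ratio 0.19), and 2 were higher in arsenite library 34 than in 32 (median -0.12). The median deviation from a gene's 4-library mean was -0.076 in water library 31 and 0.12 in 33 (log2). It was 0.038 in arsenite library 32 and -0.080 in 34. Between arsenite and water 7 of the 81 had a positive and 74 a negative log2 fold change, with a median of -0.045. That median sets 2-library means against each other, so it is not on the scale of the ratios between single libraries. In none of the 81 did the groups stay without overlap, and 0 were called; without water library 31, 7 were called, all lower in arsenite. rpl-37, of the large ribosomal subunit, had the most negative value: it was at 7.95 and 12.5 CPM in water and at 9.07 and 5.42 CPM in arsenite (-0.51, SE 0.36).

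The nuclear-encoded respiratory chain followed the same pattern at a smaller size. Of its 45 genes 37 were higher in water library 33 than in 31 (median 0.095) and 4 higher in arsenite library 34 than in 32 (median -0.072). Between arsenite and water 8 were positive and 37 negative, with a median of -0.034; 4 lay lower without overlap (8.89%, against 14.8% of all genes), and 0 were called. cox-6C and sdhd-1, given above, were the 2 with an unadjusted p under 0.05. The proteasome, with 30 of 36 genes higher in library 33 than in 31 and 3 of 36 higher in 34 than in 32, and glycolysis, with 15 and 3 of 22, did likewise, and their treatment medians were -0.021 and -0.023.

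**Figure D4:**
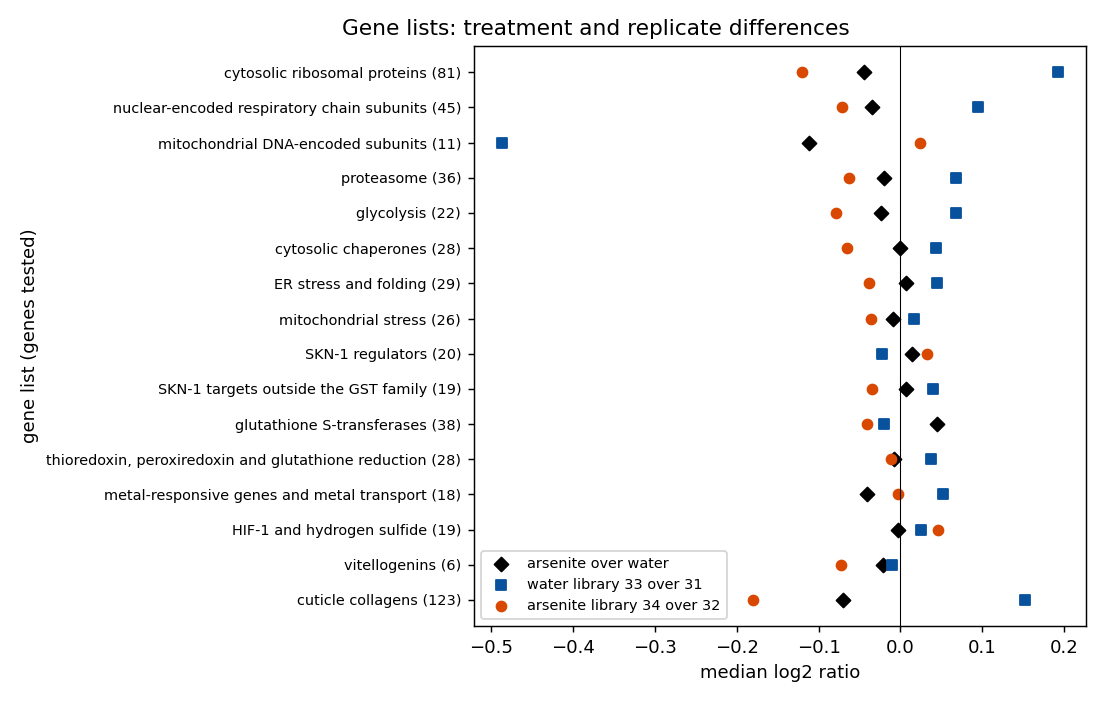
Median log2 ratio of 16 gene lists: arsenite over water (diamonds), water library 33 over 31 (squares) and arsenite library 34 over 32 (circles). For ribosomal proteins, respiratory chain, proteasome and collagens the replicate ratios lie on opposite sides of 0 and farther out than the treatment ratio.

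The library differences ran with transcript length. In genes of at least 10 CPM with a summed exon length under 500 bases (184 genes), the median deviation from a gene's mean over the 4 libraries was -0.051 in water library 31, 0.099 in water library 33, 0.024 in arsenite library 32 and -0.053 in arsenite library 34, on the log2 scale. In genes of 8000 bases and over (89 genes) these medians were 0.047, -0.12, -0.0039 and 0.083. Short transcripts thus took a larger share in water library 33, and long ones a smaller share, than in libraries 31 and 34. The ratio of library 33 to 31 correlated with log2 exon length at r = -0.39 (Spearman -0.39), that of 34 to 32 at 0.14 (Spearman 0.11), and the arsenite to water fold change at 0.26 (Spearman 0.25). These are descriptions across 7324 genes that share the 4 libraries. The treatment difference had a median of -0.051 under 500 bases and 0.073 at 8000 bases and over.

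**Figure D5:**
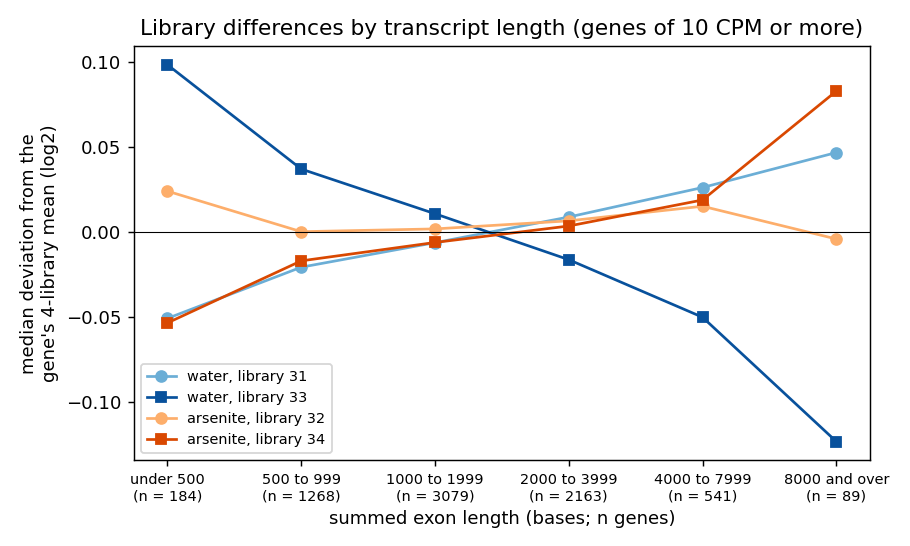
Median deviation of each library from a gene's 4-library mean (log2) in 6 classes of summed exon length, for genes of at least 10 CPM. The line of water library 33 falls from 0.099 to -0.12, those of water library 31 and arsenite library 34 climb, and arsenite library 32 stays between -0.0039 and 0.024.

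Some giant genes gave examples of these library differences. unc-89, a giant muscle protein of the sarcomere's M-line, was at 255.7 and 209.0 CPM in water and at 243.2 and 269.0 CPM in arsenite. unc-22, the muscle protein twitchin, was at 472.7 and 384.1 CPM in water and at 444.8 and 501.4 CPM in arsenite. dig-1, a giant adhesion protein of the basement membrane, was at 89.3 and 71.7 CPM in water and at 73.0 and 101.6 CPM in arsenite, and anc-1, which anchors nuclei to actin, at 69.1 and 59.1 CPM in water and 58.3 and 80.7 CPM in arsenite. Water overlapped arsenite in all 4 genes. dig-1 and anc-1 were named for their large log2 ratios of arsenite library 34 to 32 (0.48 and 0.47), so their arsenite gap was fixed by that choice. The same rule named cut-3, which is not a giant gene, with a larger ratio of 0.74. unc-89 and unc-22 were called higher in arsenite without water library 31, both by 0.30. The median exon length of the ribosomal protein genes was 530 bases, and that of the respiratory chain genes 919 bases, against 1428 over all genes tested. The mitochondrially encoded genes, with a median of 873 bases, went the other way and were lower in library 33.

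The 58 genes called without water library 31 split by length. The 39 higher in arsenite had a median exon length of 6786 bases, over the 37 with a known length, and the 19 lower had 441 bases. The higher ones, chosen here after their values were seen, included dpy-22, spat-3, ketn-1, unc-68, unc-89 and unc-22, and the lower ones included rla-1, rla-2, rpl-37, rpl-43 and rps-29 among 7 members of the list of ribosomal protein genes, and rpl-36.A, which that list does not hold. The 5 called without water library 33 were ND2, ND6, ND4, ND5 and T24B8.3, all lower in arsenite. With per-library offsets by transcript length, an alternative chosen after the data were seen, the median of the ribosomal protein genes was -0.017 in place of -0.045, that of the nuclear-encoded respiratory chain -0.019 in place of -0.034, and 1 gene was called, the pseudogene WBGene00004677.

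Yolk protein genes were near their water values, and cuticle collagen genes were measured less tightly. The yolk protein genes, made in the intestine of adult hermaphrodites, took 7.88% and 7.78% of counts in water and 7.74% and 7.53% in arsenite. vit-6 was at 32640 and 31440 CPM in water and at 32460 and 30880 CPM in arsenite, and vit-2 at 23630 and 23220 CPM in water and at 23310 and 22220 CPM in arsenite. All 6 had a negative log2 fold change (-0.051 to -0.017) and an interval within 1.5-fold. Of 175 cuticle collagen genes 123 were tested, with a median of -0.070 and 0 calls; 2 were higher and 3 lower at an unadjusted p under 0.05, and without water library 31 rol-8 was called. bli-1, a collagen of the cuticle's struts, was at 3.46 and 4.80 CPM in water and 3.63 and 1.83 CPM in arsenite, and col-113 was at 0.659 and 0.908 CPM in water and 0.982 and 1.83 CPM in arsenite. Only 58 of the 123 collagen genes tested had an interval within 1.5-fold. Their log2 fold changes ran from -1.57 (rol-8) to 0.83 (col-113). Collagen genes took 1.04% and 1.15% of counts in water and 1.13% and 1.03% in arsenite.

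The makeup of the worms, as far as the marker genes' shares of counts show it, was close in the 4 libraries. In whole-worm RNA fewer cells of a type and less RNA per cell cannot be told apart. The 20 muscle markers took 0.904% to 0.912% of counts, the 19 intestinal markers 0.495% to 0.532%, the 25 neuronal markers 0.05712% to 0.05895%, the 15 hypodermal markers 0.0940% to 0.0983% and the 30 markers of oocytes and early embryos 1.91% to 1.95%. In each of these 5 lists the water and arsenite values overlapped. The 29 zygotic embryo markers took 0.0410% to 0.0439% of counts. Of the 23 tested, 7 lay higher in arsenite without overlap (30.4%) and 2 lower (8.7%), with 0 called. Of the 15 hypodermal markers 5 lay higher (33.3%) and 1 lower (6.67%), against 13.7% and 14.8% of all genes tested. Muscle myosin unc-54 was at 2360 and 2278 CPM in water and at 2402 and 2256 CPM in arsenite. The 50 sperm markers took 0.00372% to 0.00437% of counts, and the 10 markers of males 0.00074% to 0.000876%, 3 of them tested. Intestine, muscle and germline markers of a hermaphrodite were thus well detected.

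The arsenite effect was not shown to differ between 5 days and 1 day in any gene. Fitted over all 8 libraries, the difference of the effects was called by edgeR for 0 of 14449 genes (0%), with a smallest adjusted p of 0.595 and 368 genes at an unadjusted p under 0.05; limma voom also called 0. Leaving out water library 33 gave 2 calls, the mitochondrial gene ND5 and WBGene00014294. At the label's age of 1 day the common biological coefficient of variation was 4.44% over the 4 libraries, against 5.88% over all 8.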

How the data were processed

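The deposited table holds whole-number counts per gene. Per the submitters' processing notes the authors' tools were STAR 2.4.1d, featureCounts 1.4.6-p4 and CASAVA 1.7, on build WBcel235. Not given in the sources used here are the annotation release, strand setting and treatment of multi-mapped reads, so copies and overlapping genes are uncertain. The deposited RPKM table was not used. Of 46748 identifiers, 43702 were named; coordinates and exon lengths come from Ensembl release 115.

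The 4 libraries were fitted by themselves in R 4.3.3 with edgeR 4.0.16 (filterByExpr, minimum count 10 and total 15; TMM; robust quasi-likelihood test; Benjamini-Hochberg, 0.05). Alternatives used limma 3.58.1 and DESeq2 1.42.0. Intervals are 95%. With 2 against 2 libraries an exact two-sided permutation test cannot go below 0.333. Replicates differed beyond sampling noise (chi-square over degrees of freedom 8.25 in water, 4.07 in arsenite). Gene lists and the members were chosen with earlier results of these data known. Named genes were the 8 of smallest p per direction at 5 CPM or more, reporters, up to 3 of smallest p and 3 of highest CPM per list, the largest replicate differences, the most abundant genes and fixed regulators, part of them given as ranges; others were chosen after their values were seen.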

Additional observations from a re-analysis of the deposited data

How the results depend on the processing

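The count of 0 genes called between arsenite and water held with all 8 libraries in the fit, RLE size factors, DESeq2, limma voom, at least 10 counts in each library, and nuclear ribosomal RNA left out. It was 2 with no filter on low counts (WBGene00004677 and rol-8), 1 with neighbouring library numbers as a replicate block and 1 with offsets by transcript length. Leaving out 1 library at a time gave 0 to 58 calls, 58 without water library 31 and 5 without water library 33. For the difference between 5 days and 1 day these leave-outs gave 0 to 2. The cause was not tested. ND2 ranged from -0.73 to 0.76 and ND6 from -0.68 to 0.53 (log2 fold change), changing direction with the water library left out.

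Of 273 named genes 125 changed sign under at least 1 alternative, 26 of them under a change of processing, and 13 were called under at least 1. Of 43 list medians 34 changed sign on leaving out a library and 8 under a change of processing. The labels give no shared replicate numbers; the replicate block of 31 with 32 and 33 with 34, under which 1 gene was called, rests on the library numbers in the titles alone. Genes under 1 CPM are beyond this depth for changes within 1.5-fold.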

Other observations

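Secreted signalling peptides act between neurons and tissues. Of 140 neuropeptide and insulin-like peptide genes 90 were tested, 0 were called by edgeR, and 1 was higher and 5 lower at an unadjusted p under 0.05. nlp-69 was at 0.247 and 0.291 CPM in water and at 0.718 and 0.916 CPM in arsenite, with a log2 fold change of 1.58 (SE 0.44, adjusted p = 1.00). The insulin-like gene ins-5 was at 0.536 and 0.763 CPM in water and at 0.302 and 0.110 CPM in arsenite (-1.66, SE 0.52, adjusted p = 1.00). Neither gene had overlapping groups, and both lay under 1 CPM. The better expressed nlp-40, an intestinal peptide of the defecation rhythm, was at 91.2 and 95.5 CPM in water and at 86.47 and 89.96 CPM in arsenite.

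Cytochrome P450 genes, which oxidise foreign compounds, had 60 of 74 members tested and 0 called by edgeR; 4 lay higher without overlap (6.67%) and 15 lower (25%), against 13.7% and 14.8% of all genes tested, with a median of -0.042. cyp-35A3 was at 20.2 and 22.1 CPM in water and at 18.6 and 18.8 CPM in arsenite (-0.18, SE 0.088). In 62 UDP-glucuronosyltransferases tested, 16 lay higher without overlap (25.8%) and 13 lower (21%), beside the same shares of all genes, and the median was 0.0038.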
